A study of Mus musculus with 12 samples.

Results

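The genes described here encode the proteasome: the subunits of its core particle, the inducible subunits of the immunoproteasome, the subunits of the regulatory particle, the alternative activators and the assembly chaperones. They were taken as all genes whose only symbol in the array annotation was Psma, Psmb, Psmc, Psmd, Psme or Psmg followed by a number, each represented by its brightest probe set. The rule found 46 genes among 22180 with a single symbol, measured in the livers of 12 mice. By role they were 7 core alpha ring genes, 8 core beta ring genes, 3 immunoproteasome genes, 6 ATPases, 11 other subunits of the base and lid, 4 activators and 7 assembly chaperones. Psma4 had no value of its own, because both of its probe sets also carried another symbol.

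The proteasome is the main protease of the cytosol and nucleus and degrades proteins tagged with ubiquitin. Its core is a barrel of alpha rings, which gate the entry, around beta rings, which hold the cutting sites. A regulatory particle binds the ends: a base with a ring of ATPases unfolds the substrate, and a lid removes the ubiquitin. In immune cells, and in hepatocytes exposed to interferon gamma, Psmb8, Psmb9 and Psmb10 replace the catalytic subunits Psmb5, Psmb6 and Psmb7 and form the immunoproteasome, whose peptides are well suited to presentation on MHC class I.

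The livers came from male C57BL/6 mice, either wild type (WT) or deficient in Ahnak (KO), the gene of a giant scaffold protein beneath the cell membrane. For 8 weeks, weight-matched groups ate regular chow or a high-fat diet with 60% fat (HFD), with 3 mice in each of the 4 groups and 1 mouse per array. The study set KO against WT on each diet, and the 4 groups also allow HFD to be set against chow in each genotype. The sources used here do not give the age of the mice, the deleted part of Ahnak or how the mice were related. All values are log2 signals as deposited, so a difference of 1 is a doubling of signal. Differences are given with their standard error (SE) from limma, and a gene was called at a Benjamini-Hochberg adjusted p under 0.05 over all 22180 genes. With 3 arrays per group, precision is limited by their number.

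Ahnak itself, covered by a single probe set, read 6.50, 6.83 and 6.58 in chow-fed WT and 6.38, 6.74 and 6.66 in chow-fed KO mice. HFD-fed WT mice read 7.26, 7.06 and 6.74 and HFD-fed KO mice 6.46, 6.52 and 6.62, a difference of -0.48 ± 0.14 (SE; limma adjusted p = 0.0483) that lost its call when any of 9 of the 12 arrays was left out, the exceptions being WT chow 2, KO chow 1 and WT HFD 3, with an adjusted p up to 0.173. A probe set outside the deleted part would check nothing. Whether this one lies inside that part is not known, so these values leave the labels unchecked. The 3 arrays of WT on HFD stood apart, at 30.0 to 32.3 on the first principal component (32.2% of the variance) against -18.5 to -4.0 for the other 9. They also had the lowest values of an index of circadian clock genes, the mean of 3 genes of one arm minus that of 6 of the opposite arm: -0.69 to -0.19, against 0.34 to 1.91 elsewhere. Group and clock state therefore cannot be told apart for any difference that rests on WT on HFD. All 7 measured hepatocyte markers were bright, with means of 11.84 to 14.11 over the arrays.

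Most proteasome genes were brighter than the median gene. Of the 46, 42 had a mean signal above that of the median gene, and 3 lay below the medians of the arrays (5.58 to 5.70): Psma5, with 4.43, the thymus-specific Psmb11, with 5.42, and the testis-specific Psma8, with 5.49. The levels of different probe sets are not comparable with each other, so only differences between arrays are used for each gene. Replicates lay close together. The median standard deviation (SD) within a group was 0.10 over the 46 genes, from 0.05 for Psmc3 to 0.31 for Psma8, against 0.15 over all genes.

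**Figure D1:**
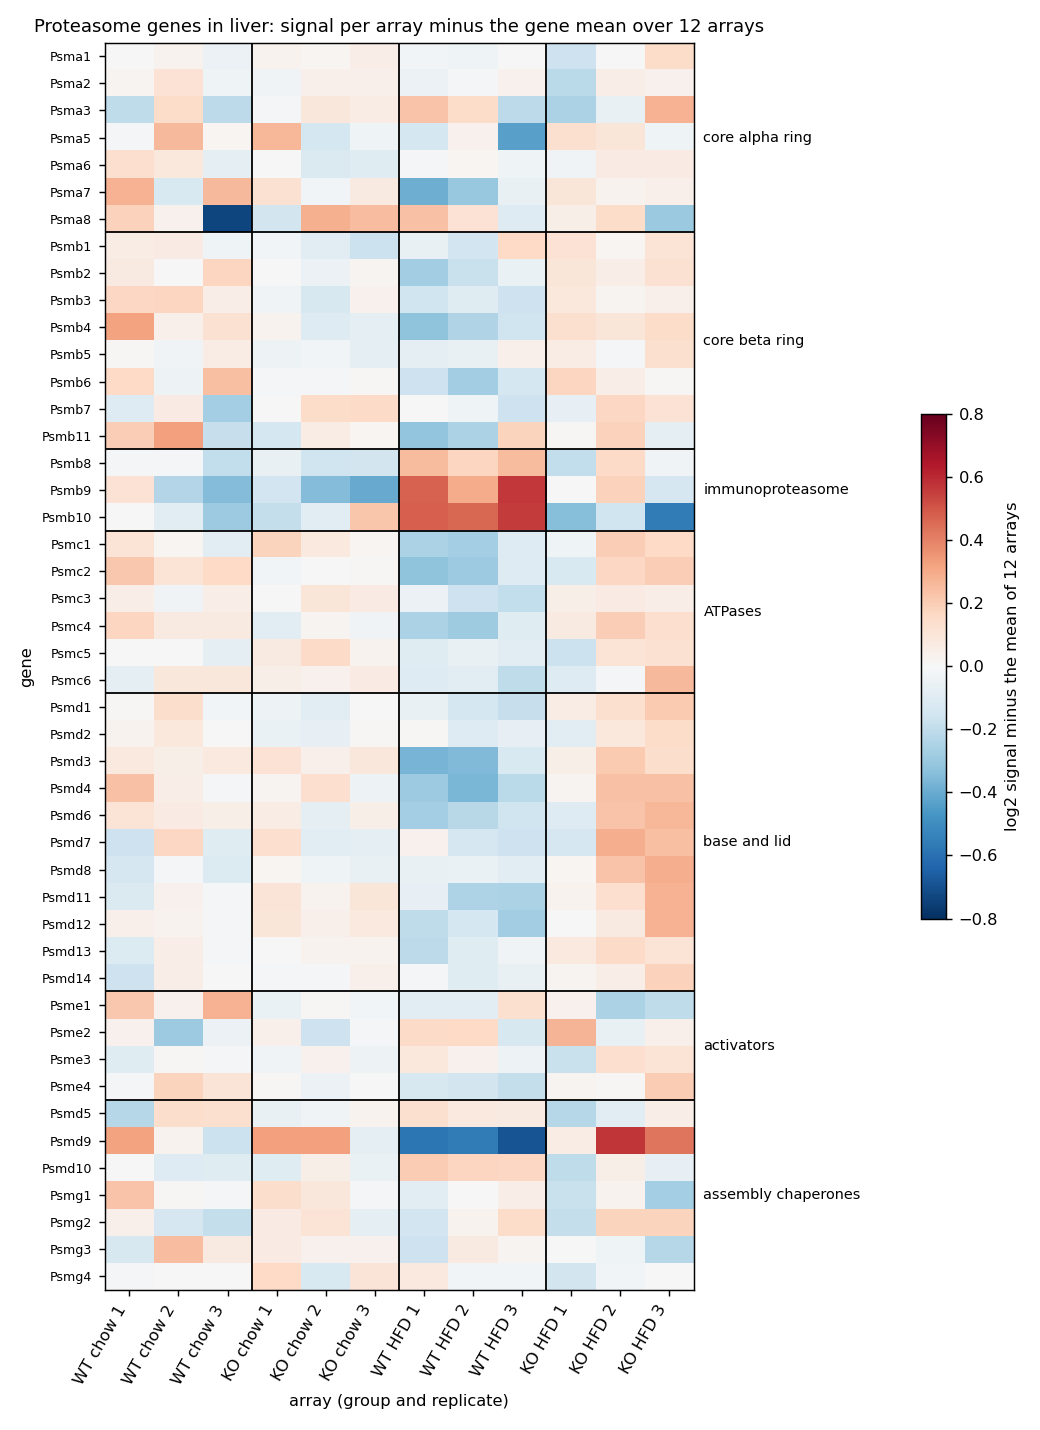
Log2 signal of each of the 46 proteasome genes (rows, by role) on each of the 12 arrays (columns, by group), minus the mean of the gene over all arrays; red is above and blue below that mean. The 3 columns of WT on HFD are mainly blue among the ATPases and the base and lid and red for Psmb8, Psmb9 and Psmb10.

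Calls among the proteasome genes came from the genotypes on HFD and from the diets in WT. In KO against WT on HFD, 8 of 46 genes were higher and 1 was lower, or 17.4% and 2.17%. Over all genes 3.89% were higher and 6.62% lower in that comparison, and among the genes above the median signal 6.57% and 11.2%. The median difference of the 46 genes was 0.154, against 0.001 for all genes, and 33 differences were positive and 13 negative. In HFD against chow in WT, 2 genes were higher and 6 lower, or 4.35% and 13%, against 4.02% and 2.94% of all genes and 6.69% and 5.24% of those above the median signal. There the median difference was -0.088, against 0.003 for all genes, with 13 positive and 33 negative differences. Arrays did not overlap between the groups for 19 genes above and 5 below in KO against WT on HFD (13% and 15.6% of all genes), and for 4 above and 16 below in HFD against chow in WT (14.2% and 12.2%). These comparisons share the 3 WT arrays on HFD, which enter them with opposite sign, and each gene's values are therefore given side by side.

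The split into higher and lower calls depended on how the arrays were scaled. With quantile normalization, 12 proteasome genes were higher and 1 lower in KO against WT on HFD. Over all genes 896 were then higher and 1475 lower, in place of 862 and 1469. With each array centred on its median, which moved the median of all genes to -0.061 in KO against WT on HFD, 3 proteasome genes were higher (Psmd3, Psmd4 and Psmd9) and 3 lower (Psmb9, Psmb10 and Psmd10). The same centring left 2 higher and 2 lower in HFD against chow in WT. Over all genes, centring gave 545 higher and 1937 lower between the genotypes on HFD. Between the diets in WT it gave 1089 and 457, in place of 891 and 652. Single arrays also moved the counts. In KO against WT on HFD the 8 higher genes became 4, 3 and 5 without WT HFD 1, 2 and 3. They became 4 without either KO HFD 2 or KO HFD 3, while the 1 lower gene became 2 without WT chow 1. Calls over all genes moved too. The 862 higher became 549, 523 and 529 without WT HFD 1, 2 and 3, and 531 and 680 without KO HFD 2 and KO HFD 3. The 1469 lower became 1456 without WT chow 1. The 6 genes lower on HFD in WT became 0 without WT chow 1, WT HFD 1 or WT HFD 2. They became 3 without WT chow 2, 1 without WT chow 3 and 4 without WT HFD 3. Over all genes, the 652 lower became 388, 634 and 318 without WT chow 1, 2 and 3. They became 395, 321 and 372 without WT HFD 1, 2 and 3. The 2 higher proteasome genes became 1 without WT chow 2 or WT HFD 1, and 0 without WT chow 3 or WT HFD 3. Over all genes, the 891 higher became 683 and 540, and 497 and 495, without these arrays.

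On KO HFD 1, 29 of the 46 genes had the lowest value of their group, against 37.6% of all genes on that array. The median deviation of the proteasome genes from their group mean was -0.077 there. Without this array 11 of the proteasome genes, in place of 8, were higher in KO than in WT on HFD. Over all genes 782, in place of 862, were then higher. Its part in the spread of the KO HFD group was not tested.

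Over the 4 groups, WT on HFD held the lowest mean for 26 of the 46 genes (56.5%; 31.7% of all genes), among them all 6 ATPases and 10 of the 11 base and lid genes. KO on HFD held the highest mean for 20 of the 46 (43.5%; 25.3% of all genes), including all 11 base and lid genes. The immunoproteasome ran the other way, with all 3 genes highest in WT on HFD.

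**Figure D2:**
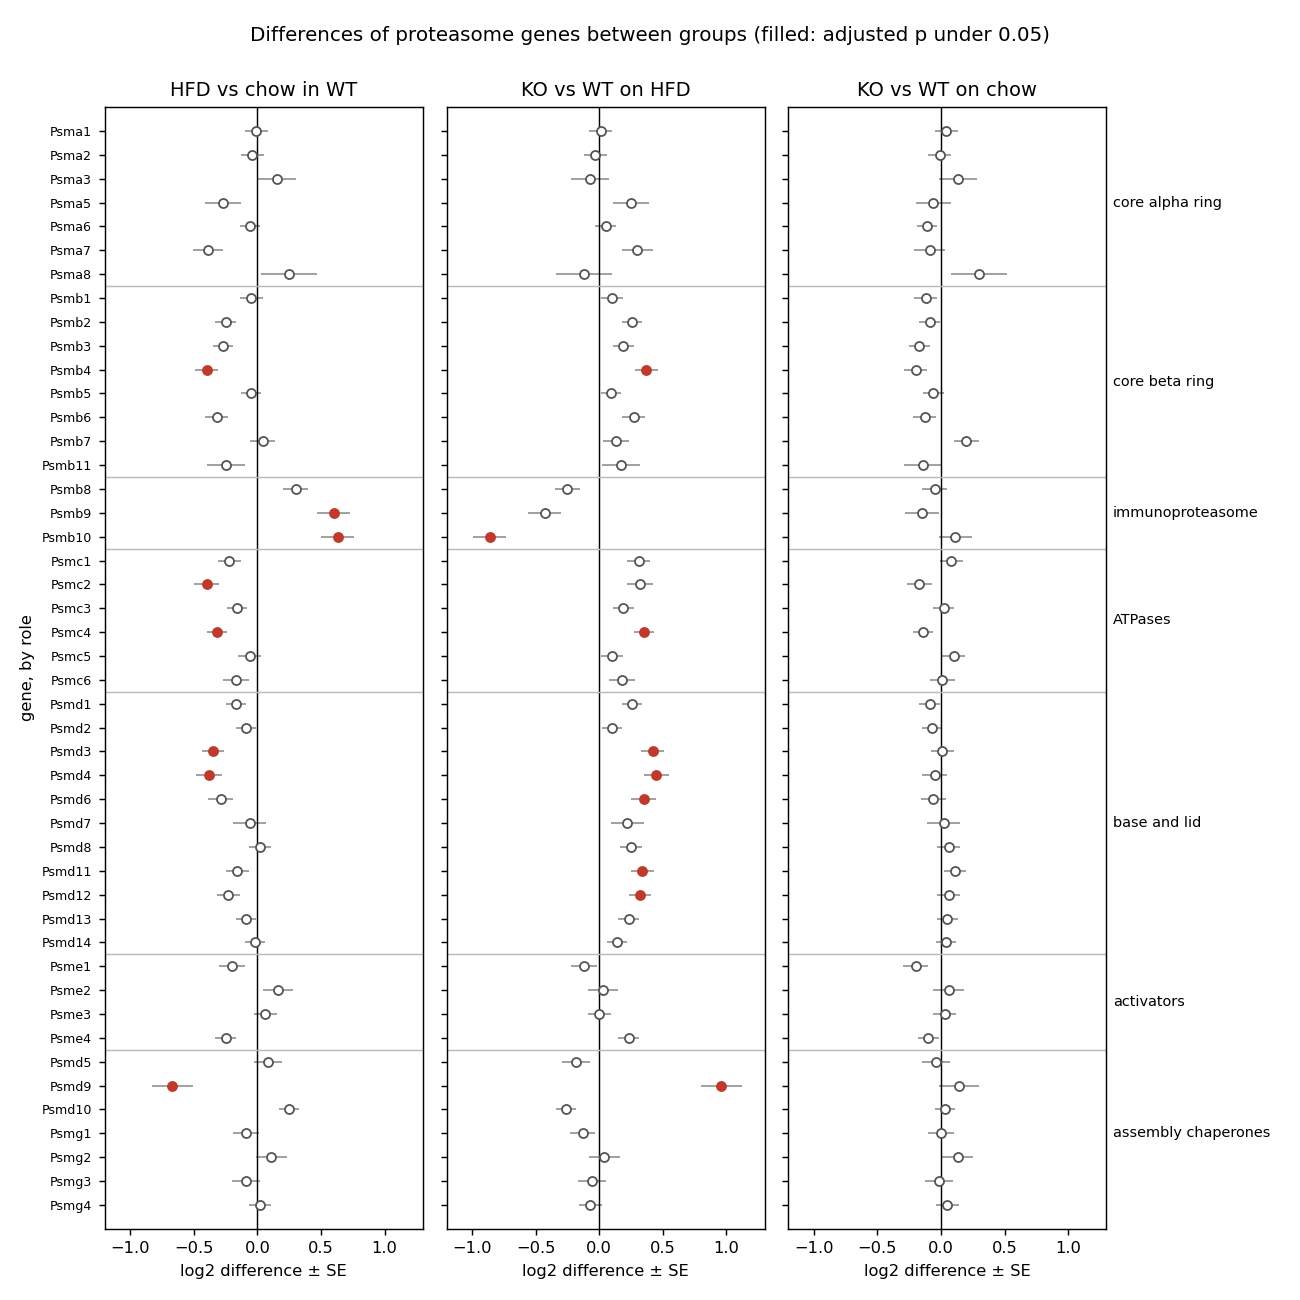
Log2 difference ± SE of each proteasome gene (rows, by role) in HFD against chow in WT, KO against WT on HFD and KO against WT on chow; filled red points passed an adjusted p under 0.05. In the middle panel all 11 base and lid genes and all 6 ATPases lie right of 0 and the 3 immunoproteasome genes left of it, and no gene is filled in the right panel.

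All 3 immunoproteasome genes had their highest values in WT on HFD. Psmb10 encodes the inducible subunit that takes the trypsin-like site of Psmb7. Its log2 signals were 8.77, 8.68 and 8.48 in chow-fed WT, 8.58, 8.68 and 8.99 in chow-fed KO, 9.25, 9.23 and 9.33 in HFD-fed WT and 8.43, 8.61 and 8.21 in HFD-fed KO mice. Every array of WT on HFD lay above each of the other 9. In WT, Psmb10 rose by 0.63 ± 0.13 on HFD (1.54-fold; adjusted p = 0.0129), and on HFD it was lower in KO than in WT by -0.86 ± 0.13 (0.553-fold; 95% interval -1.14 to -0.58; adjusted p = 0.00141). The rise in WT lost its call without WT chow 3 (adjusted p = 0.0594) or WT HFD 3 (0.0516), whereas the difference between the genotypes on HFD kept its call in each of the 12 fits that left out an array and under each of the 7 other settings.

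Psmb9, which takes the caspase-like site of Psmb6, had log2 signals of 7.63, 7.28 and 7.17 in chow-fed WT, 7.36, 7.17 and 7.11 in chow-fed KO, 7.99, 7.81 and 8.08 in HFD-fed WT and 7.51, 7.70 and 7.38 in HFD-fed KO mice. Again WT on HFD lay above all other arrays. The gene rose by 0.60 ± 0.13 in WT on HFD (1.52-fold; adjusted p = 0.0177), a call lost without WT chow 2, WT chow 3, WT HFD 1 or WT HFD 3 (adjusted p = 0.055, 0.0774, 0.0602 and 0.0723), or when only the WT arrays were fitted (0.0522). KO minus WT on HFD was -0.43 ± 0.13 and did not pass (0.742-fold; 95% interval -0.72 to -0.14; adjusted p = 0.0601), and Psmb9 was called lower with centred arrays, with trend and robust settings, and among genes above the median signal.

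Psmb8, which takes the chymotrypsin-like site of Psmb5, had log2 signals of 7.64, 7.64 and 7.46 in chow-fed WT, 7.60, 7.50 and 7.51 in chow-fed KO, 7.91, 7.83 and 7.91 in HFD-fed WT and 7.46, 7.81 and 7.63 in HFD-fed KO mice. WT on HFD lay above the other groups here too, by a narrow margin over KO HFD 2. Neither difference passed: 0.30 ± 0.10 for HFD against chow in WT (adjusted p = 0.0888) and -0.25 ± 0.10 for KO against WT on HFD (adjusted p = 0.138).

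**Figure D3:**
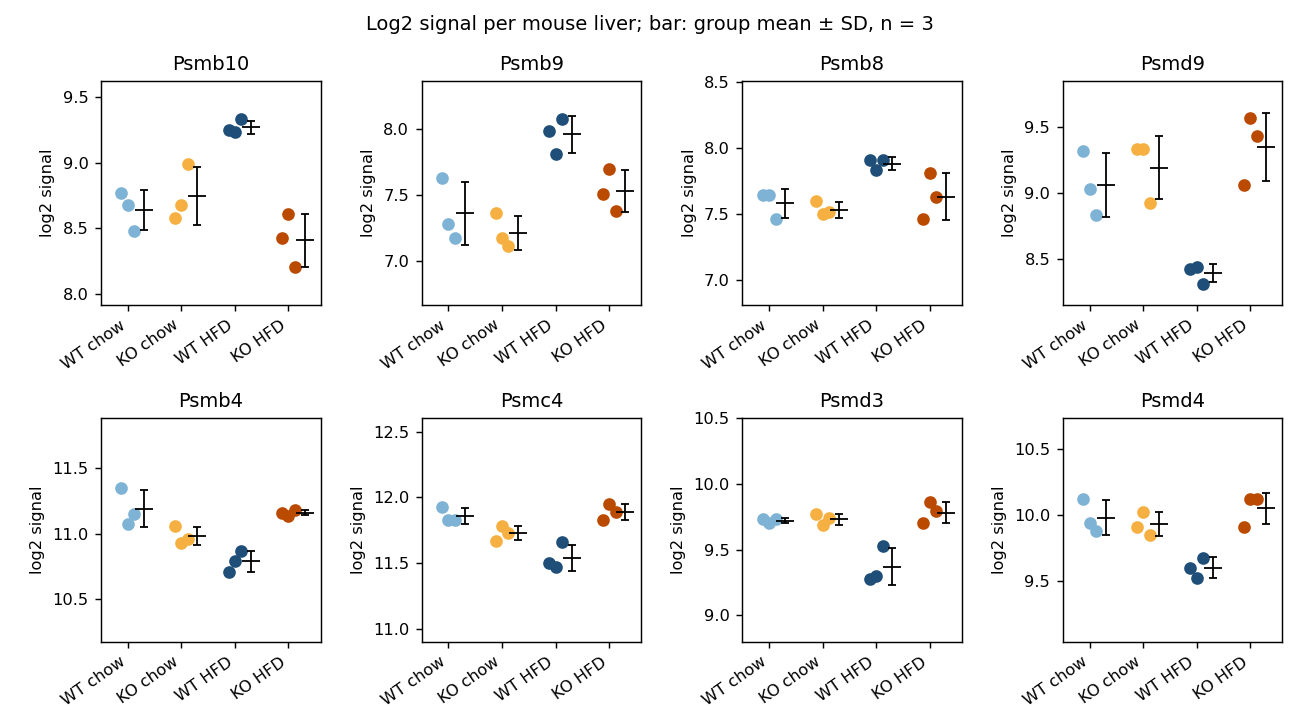
Log2 signal per mouse liver (points) and group mean ± SD of 3 mice (bars) for 8 proteasome genes, each panel on its own range. Psmb10, Psmb9 and Psmb8 are highest and Psmd9, Psmb4, Psmc4, Psmd3 and Psmd4 lowest in WT on HFD.

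Each inducible subunit was also set against the constitutive subunit whose place it takes, as the difference of their log2 signals on each array. The size of such a difference depends on the probe sets, so only its change between arrays is read. How far that change also depends on the probe sets was not tested. Psmb10 minus Psmb7 was -1.51, -1.77 and -1.63 in chow-fed WT, -1.80, -1.85 and -1.55 in chow-fed KO, -1.13, -1.12 and -0.89 in HFD-fed WT and -1.89, -1.94 and -2.29 in HFD-fed KO mice. It was 0.59 higher on HFD than on chow in WT and changed by -0.99 from WT to KO on HFD. Psmb9 minus Psmb6 ran from -2.54 to -2.00 in WT on chow, -1.38 to -1.25 in WT on HFD, -2.37 to -2.10 in KO on chow and -2.13 to -1.81 in KO on HFD, with changes of 0.92 and -0.70. Psmb8 minus Psmb5 changed by 0.35 and -0.34. For all 3 pairs WT on HFD did not overlap with WT on chow or with KO on HFD. The 2-sided exact permutation p was 0.1 for each of these 6 changes, the smallest that 3 against 3 mice allow. Psmb10 minus Psmb7 was also lower on HFD than on chow in KO, by -0.31, without overlap and with the same exact p of 0.1.

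**Figure D4:**
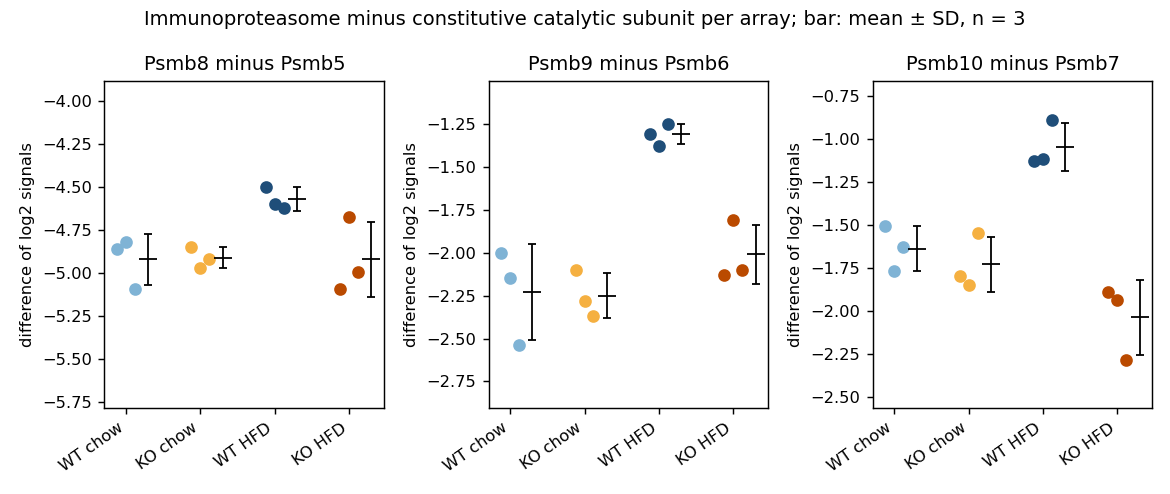
Log2 signal of each immunoproteasome subunit minus that of the constitutive catalytic subunit it replaces, per array (points), with the group mean ± SD of 3 mice. In each panel the 3 points of WT on HFD lie above those of WT on chow and KO on HFD, and the scale of the vertical axis carries no meaning between panels.

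The bases before the start of genes are shown for the immunoproteasome pair called in WT on HFD, with matches to 5 short motifs in capitals. The sequences are RefSeq's, build GRCm38.p6, 250 bases before the annotated start, 5′ to 3′ on the strand of the gene. Psmb10 lies on the minus strand at chr8:105938393-105938642, and Psmb9 on the minus strand at chr17:34187331-34187580.
Psmb10: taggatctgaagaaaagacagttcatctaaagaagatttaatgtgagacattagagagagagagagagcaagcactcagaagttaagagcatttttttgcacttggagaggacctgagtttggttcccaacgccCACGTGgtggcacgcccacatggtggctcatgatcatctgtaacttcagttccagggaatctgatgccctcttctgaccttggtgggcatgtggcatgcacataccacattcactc
Psmb9: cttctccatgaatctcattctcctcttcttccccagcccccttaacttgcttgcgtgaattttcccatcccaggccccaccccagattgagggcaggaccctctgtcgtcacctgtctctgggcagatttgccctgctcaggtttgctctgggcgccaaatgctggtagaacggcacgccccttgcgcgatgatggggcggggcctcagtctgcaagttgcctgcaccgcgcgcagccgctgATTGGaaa
The capitals mark an E-box, CACGTG, 116 to 111 bases before the start of Psmb10, and a CCAAT box on the opposite strand, 8 to 4 bases before the start of Psmb9. The motifs searched, on both strands, were the antioxidant response element TGACNNNGC, the gamma-activated site TTCNNNGAA, the interferon-stimulated response element (GAAA, any 2 bases, GAAA), CCAAT and the E-box. The promoter table held 38 of the 46 genes. Their shares were close to those of all 27025 genes in the table for most motifs: 13.2% against 11.5% for the antioxidant response element, 5.26% against 8.13% for the gamma-activated site, 36.8% against 37.5% for CCAAT and 7.89% against 6.86% for the E-box. The interferon-stimulated response element was found in 3 genes (Psmb3, Psmd4 and Psmd9), 7.89% against 3.46%. Among the immunoproteasome genes, Psmb8 held a gamma-activated site in its window. These are matches of letters, not binding sites.

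Genes of MHC class I loading, together with regulators such as Irf1 and Nlrc5, were described as a list. Of 12 listed genes 10 were measured. Between the diets in WT 1 was higher (10%, against 4.02% of all genes) and 0 lower. Between the genotypes on HFD 0 were higher and 2 lower (20%, against 6.62% of all genes). The median differences were 0.114 and -0.196. Erap1, which trims peptides in the endoplasmic reticulum, had log2 signals of 9.45, 9.46 and 9.30 in WT on HFD and 8.99, 8.82 and 9.02 in KO on HFD, without overlap. The difference was -0.46 ± 0.09 (adjusted p = 0.00705). Pdia3, a chaperone of the loading complex, was higher on HFD in WT by 0.40 ± 0.10 (adjusted p = 0.0329) and lower in KO than in WT on HFD by -0.40 ± 0.10 (adjusted p = 0.0249). The first call of Pdia3 was lost when any of 5 arrays was left out (all 3 of WT on HFD, WT chow 1 and WT chow 3; adjusted p up to 0.116) and the second when any of 4 was (all 3 of WT on HFD and KO HFD 2; up to 0.0976).

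Tap1, a subunit of the peptide transporter, is a close neighbour of Psmb9 in the MHC locus. Its log2 signals on HFD were 8.84, 8.59 and 8.68 in WT and 8.75, 9.03 and 8.50 in KO. The groups overlapped, with a difference of 0.05 ± 0.14 (adjusted p = 0.865). On chow KO, with 8.29, 8.13 and 8.02, lay below WT, with 8.71, 8.39 and 8.40, without overlap. That difference of -0.36 ± 0.14 was not called (adjusted p = 0.633), nor was that of 0.61 ± 0.14 between HFD and chow in KO, also without overlap (adjusted p = 0.133). Irf1, a transcription factor of the interferon response, differed by -0.05 ± 0.18 (adjusted p = 0.909) and Nlrc5, an activator of MHC class I genes, by -0.21 ± 0.14 (adjusted p = 0.42), and neither passed the test.

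Like the immunoproteasome genes, the mean signals of the immune cell and of the stellate and endothelial marker lists were highest in WT on HFD. Few single markers were called. The part of the marked cells in the result was not tested. In whole liver, more cells of a type cannot be told apart from more RNA per cell. The mean log2 signal of the 3 immunoproteasome genes was 8.29 to 8.44 in WT on HFD, 7.71 to 8.01 in WT on chow, 7.78 to 7.87 in KO on chow and 7.74 to 8.04 in KO on HFD. That of 7 Kupffer cell and macrophage markers was 8.77 to 9.09 in WT on HFD, 8.36 to 8.70 in WT on chow, 8.43 to 8.72 in KO on chow and 8.44 to 8.72 in KO on HFD. That of 10 leukocyte markers was 6.50 to 6.62 in WT on HFD, 6.26 to 6.48 in WT on chow, 6.31 to 6.37 in KO on chow and 6.09 to 6.44 in KO on HFD. Both marker means were highest in WT on HFD, without overlap with any other group. For the leukocyte markers the margin was narrow, at 6.50 against 6.48 in WT on chow.

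By single markers, the macrophage gene Mpeg1 rose by 0.99 ± 0.13 on HFD in WT (adjusted p = 0.0012) and was lower in KO than in WT on HFD by -0.96 ± 0.13 (adjusted p = 0.00089). It was the 1 called gene of the 7 macrophage markers in each comparison (14.3%, against 4.02% of all genes higher on HFD in WT and 6.62% lower in KO on HFD). Among the 10 leukocyte markers, 2 were higher on HFD in WT (20%, against 4.02% of all genes): Ccr2, not called without WT chow 1 (adjusted p = 0.0561), and Itgax, not called without WT chow 3 or WT HFD 1 (0.0756 and 0.0704). Of the 10 differences between the diets in WT, 6 were positive and 4 negative. The negative ones were those of the lymphocyte markers Cd3e, Cd4, Cd8a and Cd79a. In KO against WT on HFD 2 of the 10 leukocyte markers were lower (20%, against 6.62% of all genes), Ccr2 and Ptprc, the latter not called without WT HFD 1, WT HFD 3, KO HFD 2 or KO HFD 3 (adjusted p up to 0.0756). Cd4 was higher by 0.80 ± 0.18 (adjusted p = 0.0129), a call lost without WT HFD 3 (0.0511). Ccr2, Cd8a and S100a8 lay below the array medians on average and Itgax, with 5.58, at the lowest of them, whereas all 7 macrophage markers lay above them. Of the 6 stellate and endothelial markers, Col1a1 and Lrat were higher on HFD in WT and lower in KO than in WT on HFD (33.3% each, against 4.02% and 6.62% of all genes). The diet call of Lrat was lost without WT chow 1, WT chow 3, WT HFD 1 or WT HFD 2 (adjusted p up to 0.0916). Of the 7 hepatocyte markers Serpina1a fell on HFD in WT (14.3%, against 2.94% of all genes), while Serpina1a and Cps1 were higher in KO than in WT on HFD (28.6%, against 3.89%).

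**Figure D5:**
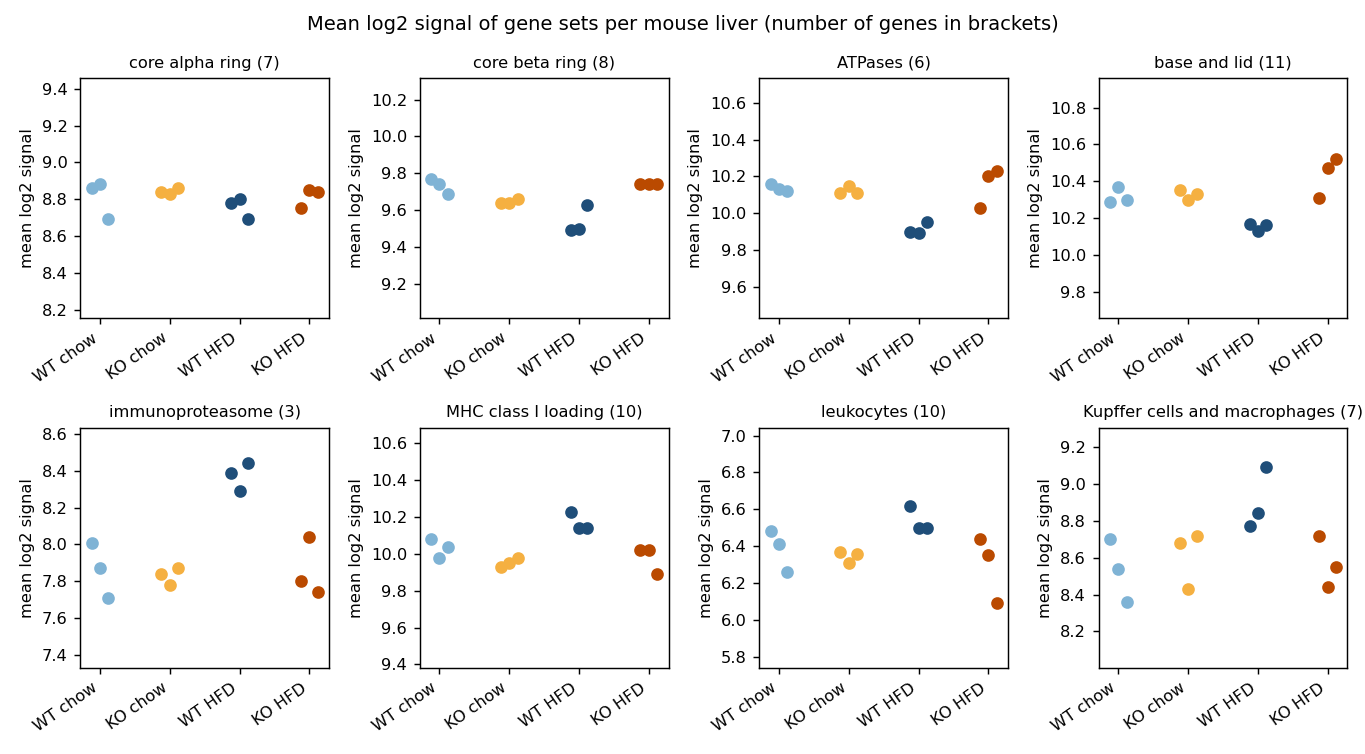
Mean log2 signal of 8 gene sets per mouse liver (points; the number of measured genes is in brackets), each panel on its own range. In WT on HFD the ATPases and the base and lid lie below, and the immunoproteasome, leukocyte and macrophage sets above, the points of the other groups.

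Few genes of the constitutive core were called. None of the 7 alpha ring genes, which form the outer rings and the gate, was called in either comparison, with median differences of 0.01 in KO against WT on HFD and -0.038 in HFD against chow in WT. These medians include Psma5 and the testis form Psma8, both below the array medians. In KO against WT on HFD the 7 differences ran from -0.12 for the dim Psma8 to 0.30 for Psma7. The lowest adjusted p of the ring was that of Psma7 between the diets in WT, with log2 signals of 9.90, 9.50 and 9.88 in chow-fed WT, 9.74, 9.60 and 9.69 in chow-fed KO, 9.23, 9.32 and 9.56 in HFD-fed WT and 9.72, 9.65 and 9.66 in HFD-fed KO mice. The diets overlapped in WT, and the difference was -0.39 ± 0.12 (adjusted p = 0.071). All 8 beta ring genes, the dim thymus form Psmb11 among them, had a positive difference in KO against WT on HFD (0.09 to 0.37) and 7 of 8 a negative one in HFD against chow in WT, but 1 was called in each (12.5%, against 3.89% of all genes higher and 2.94% lower). That gene was Psmb4, a structural subunit of the ring. The structural subunits Psmb2 and Psmb3 had 0.26 ± 0.08 and 0.19 ± 0.08 in KO against WT on HFD, without overlap and not called (adjusted p = 0.0707 and 0.153), and Psmb1 had 0.10 ± 0.09.

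Psmb4 had log2 signals of 11.35, 11.07 and 11.15 in chow-fed WT, 11.06, 10.93 and 10.96 in chow-fed KO, 10.71, 10.79 and 10.87 in HFD-fed WT and 11.16, 11.13 and 11.18 in HFD-fed KO mice. The other 9 arrays lay above WT on HFD. It fell by 0.40 ± 0.09 on HFD in WT (a difference of -0.40, 0.759-fold; adjusted p = 0.0193) and was higher in KO than in WT on HFD by 0.37 ± 0.09 (1.29-fold; adjusted p = 0.02). The fall was not called without WT chow 1, WT chow 3, WT HFD 1 or WT HFD 2 (adjusted p = 0.067, 0.0503, 0.0766 and 0.0633), or when only the WT arrays were fitted (0.0748). The difference between genotypes was not called without WT HFD 1, WT HFD 2 or KO HFD 3 (0.0784, 0.0592 and 0.0555) or with centred arrays (0.0627).

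The catalytic subunits of the constitutive core did not pass in either comparison. Psmb6 came nearest, with 9.63, 9.43 and 9.71 in chow-fed WT, 9.46, 9.45 and 9.48 in chow-fed KO, 9.30, 9.19 and 9.33 in HFD-fed WT and 9.64, 9.52 and 9.48 in HFD-fed KO mice. WT on HFD lay lowest without overlap, at -0.32 ± 0.09 against chow (adjusted p = 0.0567), and KO minus WT on HFD was 0.27 ± 0.09 (adjusted p = 0.0789). For Psmb5 the corresponding differences were -0.05 ± 0.08 (95% interval -0.21 to 0.12) and 0.09 ± 0.08 (95% interval -0.07 to 0.26). For Psmb7 they were 0.04 ± 0.10 and 0.13 ± 0.10.

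Most genes of the regulatory particle had their lowest mean in WT on HFD. All 6 ATPases had a negative difference in HFD against chow in WT, with a median of -0.196, and 2 were called (33.3%, against 2.94% of all genes lower). All 6 had a positive difference in KO against WT on HFD, with a median of 0.251, and 1 was called (16.7%, against 3.89% of all genes higher). The signs of all 6 held in both comparisons under quantile normalization and with centred arrays, but with centred arrays none of them was called.

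Psmc4, called in both comparisons, had log2 signals of 11.93, 11.83 and 11.83 in chow-fed WT, 11.67, 11.78 and 11.73 in chow-fed KO, 11.50, 11.47 and 11.66 in HFD-fed WT and 11.83, 11.95 and 11.89 in HFD-fed KO mice. All other arrays lay above WT on HFD, by 0.01 in the closest case. The difference was -0.32 ± 0.08 for HFD against chow in WT (0.799-fold; adjusted p = 0.0332) and 0.35 ± 0.08 for KO against WT on HFD (1.27-fold; adjusted p = 0.0171). The first call was lost without any 1 of the 3 arrays of WT on chow or without WT HFD 1 or 2 (adjusted p = 0.0594 to 0.124), and the second without WT HFD 1, WT HFD 2 or KO HFD 2 (0.0641, 0.0709 and 0.0648). Both were lost when only the compared arrays were fitted (adjusted p = 0.0945 and 0.0677). The first was also lost with the replicate number as a block (0.0609).

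Psmc2, another ATPase, fell in WT on HFD, from 9.83, 9.72 and 9.77 to 9.29, 9.32 and 9.51. The difference was -0.40 ± 0.10 (0.757-fold; adjusted p = 0.03), lost without any 1 of the 3 arrays of WT on chow or without WT HFD 1 or 2 (adjusted p = 0.0517 to 0.108), or when only the WT arrays were fitted (0.0571). KO on HFD had 9.49, 9.78 and 9.81, overlapping with WT, and the difference of 0.32 ± 0.10 did not pass (adjusted p = 0.0612). Psmc1 had a difference of 0.31 ± 0.09 between the genotypes on HFD (adjusted p = 0.0539), without overlap and not called, and the remaining ATPases, Psmc3, Psmc5 and Psmc6, had 0.19, 0.10 and 0.18.

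Of the 11 base and lid genes, 5 were higher in KO than in WT on HFD (45.5%, against 3.89% of all genes and 6.57% of those above the median signal) and none lower, and all 11 differences were positive, from 0.10 to 0.45. On HFD in WT 2 fell (18.2%, against 2.94% of all genes), and 10 of 11 differences were negative. The signs in KO against WT on HFD held for all 11 with centred arrays and with quantile normalization, while 2 and 5 of them were then called. Between the diets in WT, centring left 9 of 11 negative and none called.

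Psmd4, the subunit that binds ubiquitin chains, had log2 signals of 10.12, 9.94 and 9.88 in chow-fed WT, 9.91, 10.02 and 9.85 in chow-fed KO, 9.60, 9.52 and 9.67 in HFD-fed WT and 9.91, 10.12 and 10.12 in HFD-fed KO mice. The 3 arrays of WT on HFD lay below all others. Psmd4 was higher in KO than in WT on HFD by 0.45 ± 0.10 (1.37-fold; adjusted p = 0.0104), a call kept whichever array was left out. It fell on HFD in WT by a difference of -0.38 ± 0.10 (0.767-fold; adjusted p = 0.0345), a call lost when any of the 6 WT arrays was left out (adjusted p = 0.0521 to 0.123). This call was also lost with the replicate number as a block (0.0653) and when only the WT arrays were fitted (0.0746).

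Psmd3, a lid subunit, had log2 signals of 9.73, 9.70 and 9.73 in chow-fed WT, 9.77, 9.69 and 9.74 in chow-fed KO, 9.28, 9.30 and 9.53 in HFD-fed WT and 9.70, 9.86 and 9.79 in HFD-fed KO mice. WT on HFD again lay lowest without overlap. The difference between the genotypes on HFD was 0.42 ± 0.09 (1.33-fold; adjusted p = 0.00891). It kept its call whichever array was left out and lost it when only the arrays on HFD were fitted (adjusted p = 0.0511). In WT the difference between the diets was -0.35 ± 0.09 (0.783-fold; adjusted p = 0.0286), not called without any 1 of the 3 arrays of WT on chow or without WT HFD 1 or 2 (adjusted p = 0.0584 to 0.11), or when only the WT arrays were fitted (0.0865).

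The lid subunits Psmd11, Psmd12 and Psmd6 were higher in KO than in WT on HFD by smaller differences than Psmd4 and Psmd3. Psmd11 had 10.65, 10.47 and 10.46 in WT and 10.74, 10.85 and 10.99 in KO on HFD, a difference of 0.34 ± 0.09 (adjusted p = 0.0348). Psmd12 had 10.41, 10.47 and 10.33 in WT and 10.61, 10.68 and 10.89 in KO, a difference of 0.32 ± 0.09 (adjusted p = 0.0324). Psmd6 had 10.01, 10.06 and 10.12 in WT and 10.18, 10.51 and 10.55 in KO, a difference of 0.35 ± 0.10 (adjusted p = 0.043). None of the 3 overlapped between the genotypes. None was called with centred arrays, with the replicate number as a block or when only the arrays on HFD were fitted. The call of Psmd11 was lost without WT HFD 2, WT HFD 3, KO HFD 2 or KO HFD 3 (adjusted p up to 0.117), that of Psmd12 without any 1 of the 3 arrays of WT on HFD, KO HFD 2 or KO HFD 3 (up to 0.112), and that of Psmd6 when any of 11 arrays was left out, KO HFD 1 being the exception (up to 0.142).

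The other base and lid genes were not called in either comparison. Psmd14, the deubiquitinating enzyme of the lid, had a difference of 0.14 ± 0.08 between the genotypes on HFD (95% interval -0.05 to 0.32). Psmd1 and Psmd2, the large scaffold subunits of the base, had 0.26 ± 0.08 and 0.10 ± 0.08. Psmd7, Psmd8 and Psmd13 had 0.22, 0.25 and 0.23, with adjusted p from 0.0948 to 0.335.

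The alternative activators, which open the core without the ATPases, gave no calls among 4 genes. Psme1 and Psme2 form the activator induced by interferon gamma together with the immunoproteasome. Psme1 had, between the diets in WT, a difference of -0.20 ± 0.10 (adjusted p = 0.312) and Psme2 one of 0.16 ± 0.12 (adjusted p = 0.51), and both overlapped between the diets. In KO against WT on HFD they had -0.12 ± 0.10 and 0.03 ± 0.12. Psme3, whose product acts mainly in the nucleus, had 0.06 ± 0.09 between the diets in WT, with overlap. Psme4, a nuclear activator, was lowest in WT on HFD, with 10.41, 10.39 and 10.35 against 10.56, 10.55 and 10.74 in KO on HFD, and its difference of 0.23 ± 0.08 was not called (adjusted p = 0.104).

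Of the 7 assembly chaperones 1 was called in each comparison (14.3%, against 3.89% of all genes higher in KO against WT on HFD and 2.94% lower in HFD against chow in WT). This gene, Psmd9, showed the largest difference of all 46 genes in both comparisons. Psmd9 encodes a chaperone that helps to assemble the base and is not part of the finished particle. Its log2 signals were 9.32, 9.03 and 8.83 in chow-fed WT, 9.33, 9.33 and 8.92 in chow-fed KO, 8.42, 8.44 and 8.31 in HFD-fed WT and 9.06, 9.57 and 9.43 in HFD-fed KO mice. WT on HFD lay below all other arrays, by 0.39 in the closest case. On HFD it was higher in KO than in WT by 0.96 ± 0.16 (1.95-fold; 95% interval 0.62 to 1.31; adjusted p = 0.00241), a call kept whichever array was left out and under each of the 7 other settings. In WT it fell on HFD by a difference of -0.67 ± 0.16 (0.629-fold; adjusted p = 0.0263), which was not called without any 1 of the 3 arrays of WT on HFD, WT chow 1 or WT chow 2 (adjusted p = 0.0556 to 0.0968).

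The other base chaperones, Psmd10 and Psmd5, had the opposite signs and were not called. Psmd10, also known as gankyrin, had 8.97, 8.94 and 8.93 in WT on HFD and 8.56, 8.81 and 8.70 in KO on HFD, without overlap. The difference was -0.26 ± 0.08 (adjusted p = 0.0775), called lower with centred arrays. Psmd5 had -0.18 ± 0.11 (adjusted p = 0.335). The chaperones of the core, Psmg1, Psmg2, Psmg3 and Psmg4, had differences between -0.13 and 0.04 in KO against WT on HFD, and their arrays overlapped.

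The windows before Psmd9 and Psmd4 are shown because the former differed most and the latter kept its genotype call whichever array was left out. Psmd9 lies on the plus strand at chr5:123227940-123228189 and Psmd4 on the minus strand at chr3:95042615-95042864, with motif matches again in capitals.
Psmd9: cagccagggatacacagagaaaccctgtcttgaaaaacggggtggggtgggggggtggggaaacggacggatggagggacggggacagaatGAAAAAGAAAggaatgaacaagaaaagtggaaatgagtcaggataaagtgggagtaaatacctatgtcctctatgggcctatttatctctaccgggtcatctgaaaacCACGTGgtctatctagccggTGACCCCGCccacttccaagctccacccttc
Psmd4: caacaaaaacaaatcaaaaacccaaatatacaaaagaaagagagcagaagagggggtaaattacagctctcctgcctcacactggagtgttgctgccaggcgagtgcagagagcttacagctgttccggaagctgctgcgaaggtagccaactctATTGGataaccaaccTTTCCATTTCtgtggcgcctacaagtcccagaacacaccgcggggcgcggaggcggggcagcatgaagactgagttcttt
In Psmd9 the capitals mark an interferon-stimulated response element 159 to 150 bases before the start, an E-box at 51 to 46 and an antioxidant response element at 31 to 23. In Psmd4 they mark a CCAAT box on the opposite strand at 95 to 91 bases and an interferon-stimulated response element on the opposite strand at 80 to 71.

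Other genes encode proteins that work with the proteasome but carry other names. Of 17 listed partners 14 were measured, and in KO against WT on HFD 1 was higher and 0 lower, or 7.14% higher against 3.89% of all genes and 6.57% of those above the median signal. The called gene, Zfand5, which binds the particle and raises its activity, had log2 signals of 10.27, 10.14 and 10.25 in chow-fed WT, 10.25, 10.22 and 10.23 in chow-fed KO, 9.81, 9.76 and 9.72 in HFD-fed WT and 10.21, 10.22 and 10.38 in HFD-fed KO mice. WT on HFD lay lowest without overlap, at -0.46 ± 0.08 against chow (0.729-fold; adjusted p = 0.0047), and KO minus WT on HFD was 0.50 ± 0.08 (1.42-fold; adjusted p = 0.00168). It was also the 1 partner called in HFD against chow in WT (7.14% lower, against 2.94% of all genes). Uchl5, a deubiquitinating enzyme bound to the base, had -0.42 ± 0.12 in KO against WT on HFD and was not called (adjusted p = 0.0525).

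Of 8 genes of ubiquitin and the p97 unfoldase 3 were measured, and 1 was called in KO against WT on HFD (33.3% higher, against 3.89% of all genes). Nploc4, a cofactor of p97, was higher in KO than in WT on HFD by 0.29 ± 0.08 (adjusted p = 0.046), and 9 arrays each took this call away when left out, the exceptions being WT chow 1, KO chow 2 and KO HFD 1 (adjusted p up to 0.139), and with centred arrays (0.127). Of 6 genes that regulate proteasome transcription 5 were measured and none was called. Nfe2l1, the transcription factor that induces proteasome genes when the proteasome is inhibited, had 0.23 ± 0.09 in HFD against chow in WT (adjusted p = 0.144) and -0.16 ± 0.09 in KO against WT on HFD (adjusted p = 0.291). Nfe2l2, the oxidative stress factor, had 0.08 ± 0.09 and -0.17 ± 0.09.

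No proteasome gene was called on chow. By limma, 0 of 46 genes passed in KO against WT on chow, where 0.00902% of all genes were higher and 0% lower. An unadjusted limma p under 0.05 was found for 2 of the 46, against 1558 of all 22180 genes. The median difference was -0.005, with 22 positive and 24 negative differences from -0.20 to 0.30. The lowest limma adjusted p was 0.684, for Psmb4, with a difference of -0.20. The intervals bound the change that could have been missed: 95% intervals on chow ran from -0.17 to 0.39 for Psmb10, -0.21 to 0.48 for Psmd9 and -0.26 to 0.16 for Psmd4.

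In KO mice the diet gave no call either. In HFD against chow in KO, 0 of 46 genes passed by limma, against 0.0857% of all genes higher and 0.158% lower. An unadjusted limma p under 0.05 was found for 4 of the 46, against 1887 of all 22180 genes. The median difference was 0.069, with 31 positive and 15 negative. All 11 base and lid genes had a positive difference, with a median of 0.091. The immunoproteasome genes did not share a sign, with -0.34 ± 0.13 for Psmb10 (adjusted p = 0.5), 0.32 ± 0.13 for Psmb9 (0.533) and 0.10 ± 0.10 for Psmb8 (0.837).

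Averaged over both diets, KO against WT gave 1 higher and 1 lower gene among the 46, against 1.45% and 3.36% of all genes. Psmd9 was higher by 0.55 ± 0.11 (adjusted p = 0.0161), a call kept whichever array was left out, and Psmb10 was lower by -0.37 ± 0.09 (adjusted p = 0.0367). Both averages rest mainly on the HFD groups. Psmd9 had means of 9.06 in WT and 9.19 in KO on chow, and 8.39 and 9.35 on HFD. Psmb10 was not lower in KO on chow, with means of 8.64 in WT and 8.75 in KO, against 9.27 and 8.41 on HFD. The call of Psmb10 was lost when any of 9 arrays was left out, the exceptions being WT chow 3, KO chow 3 and KO HFD 2 (adjusted p up to 0.0934). A 2nd gene was higher without WT HFD 3 or KO HFD 1. Over all genes 205 and 345 were then higher, in place of 321.

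Whether the genotype difference itself depended on the diet was tested by the interaction, KO minus WT on HFD less KO minus WT on chow. Of the 46 genes 2 were higher and 1 lower, against 1.43% and 2.1% of all genes. Psmb10 had an interaction of -0.96 ± 0.18 (adjusted p = 0.0145), kept whichever array was left out and under each of 6 other settings. Psmb4 had 0.57 ± 0.13 (adjusted p = 0.0287) and Psmc4 0.48 ± 0.11 (adjusted p = 0.0402). The call of Psmb4 was lost when any of 8 arrays was left out (adjusted p up to 0.0761) and that of Psmc4 when any of 10 was (up to 0.102), the arrays whose loss kept them being WT chow 2, KO chow 1, WT HFD 3 and KO HFD 1 for Psmb4 and WT HFD 3 and KO HFD 1 for Psmc4. Centred arrays left 0 higher and 1 lower. The higher count became 6 without KO HFD 1 and 1 without WT chow 2 or KO chow 1. It became 0 without WT chow 1 or 3, KO chow 2 or 3, WT HFD 1 or 2, or KO HFD 2 or 3. Over all genes centring left 221 higher and 623 lower, in place of 318 and 465. The 318 became 275 without KO HFD 1, 314 without WT chow 2 and 271 without KO chow 1. They became 162 to 279 without 1 of the arrays that left 0.

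The interaction of Psmd9 was 0.83 ± 0.23 and did not pass (95% interval 0.34 to 1.32; adjusted p = 0.0709). Those of Psmd4 and Psmd3 were 0.50 ± 0.14 (adjusted p = 0.0698) and 0.40 ± 0.12 (0.101). All 11 base and lid genes had a positive interaction, with a median of 0.228, against -0.003 for all genes. Psmb9 and Psmb8 had -0.28 ± 0.19 (adjusted p = 0.49) and -0.20 ± 0.14 (0.504), so that a dependence on diet was called for 1 of the 3 immunoproteasome genes.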

How the data were processed

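Total RNA of 12 livers, 1 mouse per array, was measured on mouse arrays, with labelling by an Affymetrix in vitro transcription kit per the labels' protocols. The authors deposited log2 signals for 41345 probe sets. The submitters' processing notes name oligo, and the sources used here give neither its version nor its settings. Values ran from 1.40 to 14.36 with 0 missing and were used as deposited. Exactly 1 symbol was carried by 23521 probe sets (23328 matched by gene number to RefSeq names), several by 1814 and none by 16010. The brightest probe set stood for each of 22180 genes, which mattered for 3 members (Psma5, Psmc2 and Psmg2).

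One limma fit (version 3.58.1, R 4.3.3, lmFit and eBayes) covered all 4 groups, without a block or a filter on dim genes, and p-values were adjusted over all genes within each of the 6 comparisons. The catalytic pairs were compared by exact permutation tests. Members with a call and the catalytic pairs were described in full, and every member could be named. The code was tested on simulated data. P-values measure the spread between mice that the labels give as separate replicates. The members, the gene lists, the motifs and the clock index were chosen with earlier results of these data known. Alternatives were the replicate number as a block, trend and robust settings of eBayes, quantile normalization, centring each array on its median, a filter at the median signal, averaging a gene's probe sets, fitting the compared arrays alone, and leaving out each array in turn.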

Additional observations from a re-analysis of the deposited data

Results flagged for a closer look

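A difference between KO and WT that itself differed between the diets (limma interaction, adjusted p under 0.05) singled out 3 of the 46 proteasome genes. Of the 46, 4.35% were higher and 2.17% lower, against 1.43% and 2.1% of all genes. Psmb10 had an interaction of -0.96 on the log2 scale (adjusted p = 0.0145), with KO below WT on HFD on all arrays and an overlap on chow. Psmb4 had 0.57 (adjusted p = 0.0287) and Psmc4 had 0.48 (adjusted p = 0.0402), with KO above WT on HFD on all arrays. On chow KO lay below WT without overlap for both of these genes, with differences of -0.20 for Psmb4 and -0.14 for Psmc4 that were not called (adjusted p = 0.684 and 0.782), and these enter the interaction.

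Among the other listed genes and the cell type markers, 6 genes had such an interaction, which was called higher for 1.43% and lower for 2.1% of all genes. Col1a1, a collagen of stellate cells, had -1.42 (adjusted p = 0.00192), and Lrat, a retinol-storing enzyme of the same cells, had -0.84 (0.00857). The macrophage gene Mpeg1 had -1.04 (0.0121) and Erap1 had -0.58 (0.0287). Zfand5 had 0.49 (0.0318) and Serpina1a, a secretory product of hepatocytes, had 0.50 (0.0465). Of these, Col1a1, Lrat and Mpeg1 kept their call whichever array was left out. Erap1 lost its call when any of 7 arrays was left out, the exceptions being WT chow 2, KO chow 1, WT HFD 3, KO HFD 1 and KO HFD 3 (adjusted p up to 0.0775), Zfand5 when any of 10 was, the exceptions being WT chow 2 and KO HFD 1 (up to 0.0779), and Serpina1a when any of the 12 was (up to 0.109).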

How the results depend on the processing

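Of 22 calls among the proteasome genes, 6 were kept whichever array was left out and 5 under every alternative tried as well: Psmb10 in KO against WT on HFD and in the interaction, Psmd9 in KO against WT on HFD and on average, and Psmd4 in KO against WT on HFD. None of the 22 changed sign. The counts moved more, and the causes were not tested. In KO against WT on HFD the 8 higher genes became 5 with the replicate block, 15 with trend and robust settings and 3 with centred arrays. They became 12 with quantile normalization, 16 among genes above the median signal, 3 with only the arrays compared and 3 to 11 without 1 array. The 1 lower gene became 3 with trend and robust settings, centring or the signal filter, and 1 to 2 without 1 array. Over all genes, 862 higher became 733 with the block, 1090 with trend and robust settings, 545 with centring and 896 with quantile normalization. They became 1168 of 11090 with the filter, 593 with only the arrays compared and 523 to 870 without 1 array. The 1469 lower became 1685 with trend and robust settings, 1937 with centring, 1747 with the filter and 977 to 1456 without 1 array. Between the diets in WT the 2 higher genes became 4 with the signal filter, 1 with only the arrays compared and 0 to 2 without 1 array. The 6 lower genes became 12 with trend and robust settings or the signal filter and 2 with centring. They became 1 with only the arrays compared and 0 to 7 without 1 array. Over all genes, 891 higher became 1211 with the filter, 630 with only the arrays compared and 495 to 977 without 1 array. The 652 lower became 902 with trend and robust settings, 1002 with the filter and 457 with centring. They became 430 with only the arrays compared and 318 to 714 without 1 array. On average over the diets the 1 higher gene became 4 with trend and robust settings or the signal filter and 1 to 2 without 1 array. The 1 lower gene became 0 with the replicate block and 0 to 1 without 1 array. Over all genes, 321 higher became 479 with trend and robust settings, 524 with the filter and 188 to 345 without 1 array. The 746 lower became 563 with the block and 457 to 700 without 1 array. In the interaction the 2 higher genes became 1 with the replicate block, 7 with trend and robust settings and 0 with centring. They became 10 with the signal filter and 0 to 6 without 1 array. Over all genes, 318 higher became 247 with the block, 491 with trend and robust settings and 221 with centring. They became 584 with the filter and 162 to 314 without 1 array. Same-numbered arrays of different groups correlated at -0.064 to 0.080 in their deviations over all genes. The labels give the numbers only as replicates. Whether same-numbered mice shared a factor that acts on part of the genes was not tested. Signal limits Psma5, Psma8 and Psmb11, which lay below the array medians.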
